A study of Mus musculus with 661 samples.

Results

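The IL-6 family of the bone marrow stroma is described here through 9 genes, of 45808 genes in the count table and 45771 nuclear ones. They are the cytokine genes *Il6*, *Lif*, *Il11* and *Clcf1*, the receptor genes *Il6st*, *Il6ra*, *Lifr* and *Osmr*, and the inhibitor gene *Socs3*. They were chosen by name with measured values of these cells in view, so their levels are a description and carry no test.

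The study sorted individual stromal cells from the bones of young and old C57BL/6 wild-type mice and sequenced the transcripts of each cell in its own well. Among the mesenchymal populations, MSC-S were Sca-1-positive stromal cells of the endosteum, the inner bone surface (59 young and 59 old cells). OPr were endosteal osteoprogenitors that lack PDGFRα (44 young and 29 old cells), and mOPr were those that carry it (26 young and 26 old cells). MSC-L were LepR-positive stromal cells of the central marrow (53 young and 58 old cells). Among the endothelial populations, AEC were arteriolar cells high in Sca-1 and CD31 (84 young and 82 old cells), and SEC were sinusoidal cells low in both (70 young and 71 old cells). The labels give ages as young or old and name no mouse, so each age of a population was 1 sample, no difference between ages has a replicate check, and no test was made.

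The cells held 58034 to 1503374 counts each, with 425611 in the median cell. Summed over a group, nuclear counts ran from 12485462 in old mOPr to 39179615 in old MSC-S. Levels are given as CPM (counts scaled by these sums in the usual way) with exact Poisson intervals, ratios of counts with exact conditional binomial intervals, and shares of cells with exact Clopper-Pearson intervals, all at the 95% level. Reads were copied by PCR and carried no molecular identifiers, so they are not independent molecules and the intervals cover counting error only. A cell is said to carry a gene at 10 CPM or more. Log2 ratios of old over young were taken after adding 1 CPM to both levels. A gene counts as higher or lower in old cells from 2-fold on, a log2 ratio of 1 or -1, and only if it had at least 100 counts in at least 5 cells over both ages.

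The labels were checked against marker genes. All 10 endothelial markers were at or above 10 CPM in AEC and SEC of both ages, with summed levels from 8989 CPM in young SEC to 10676 CPM in young AEC, whereas mesenchymal groups reached at most 122 CPM. The 10 mesenchymal markers summed to 14839 CPM in young OPr, the lowest mesenchymal group, and to at most 6595 CPM in an endothelial group. SEC markers summed to 13996 CPM in young SEC and 10895 CPM in old SEC, against 960.3 and 402 CPM in AEC. One of them, *Vcam1*, alone stood above these AEC sums in MSC-L, at 1843 CPM in young and 1937 CPM in old cells. AEC markers summed to 2857 CPM in old AEC, 311 CPM in young SEC and 1042 CPM in old SEC, but also to 1339 CPM in old MSC-S, mostly from *Ly6a* (1304 CPM). MSC-S markers summed to 2744 CPM in young and 3169.7 CPM in old MSC-S, and to 2377 and 2496 CPM in AEC, so they did not single out MSC-S. The 5 osteoprogenitor markers did not single out OPr and mOPr, since their highest sum, 8670.1 CPM, was in young MSC-L and came mostly from *Ibsp* (8012 CPM). The 4 MSC-L markers (*Lepr*, *Cxcl12*, *Kitl* and *Adipoq*) summed to 55894 CPM in young and 45685 CPM in old MSC-L. In OPr they summed to 5223 CPM in young and 22019 CPM in old cells, and in mOPr to 763 and 20622 CPM, with *Cxcl12* the most abundant of them in each.

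In addition, 10 old cells stood apart by carrying at least 7 of 15 hematopoietic markers. Of these, 8 were OPr with 13 to 15 markers, 1 was an SEC with 13 and 1 was an MSC-L with 7. In old OPr all 15 markers were at or above 10 CPM, with a summed level of 6436 CPM and *Plek* (971 CPM) the most abundant. Without the 8 cells this sum was 41.9 CPM, and it was 28.4 CPM in young OPr, where *Cd52* and *Csf3r* had no count. The sum was 678 CPM in old SEC, 296 CPM in old MSC-L, 188 CPM in young SEC and at most 117 CPM in the other groups. Results in OPr, MSC-L and SEC are therefore given with and without these cells wherever they differ in more than size. A further 16 endothelial cells carried at least 7 of the 10 mesenchymal markers (2 young AEC, 1 old AEC, 8 young SEC and 5 old SEC).

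Cytokines of the IL-6 family signal through gp130, the shared receptor subunit encoded by *Il6st*, which is joined by a partner that sets which cytokine is bound. The activated receptor works through JAK kinases and STAT3, and SOCS3, itself induced by STAT3, shuts the signal off at gp130. In bone marrow, IL-6 is known for promoting myeloid output from blood progenitors, and gp130 cytokines act on both the formation and the resorption of bone.

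*Il6*, which encodes the founding cytokine of the family (chr5:30013114-30019981, GRCm38, plus strand), was highest in old MSC-S when all cells of each group were summed. In young cells its level was 32.5 CPM in MSC-S, 1.26 in OPr, 31.8 in mOPr, 0.658 in MSC-L, 167 in AEC and 21.1 in SEC. In old cells it was 307 CPM in MSC-S, 25.4 in OPr, 108 in mOPr, 0.0513 in MSC-L, 214 in AEC and 79.3 in SEC. Old MSC-S and AEC of both ages thus led the 12 groups, and MSC-L of both ages and young OPr held almost no *Il6*. Along this order, intervals of neighbours overlapped only between young MSC-S and young mOPr and between young OPr and young MSC-L. Over all groups, 101 cells carried *Il6* (15.3%).

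In MSC-S, the level of *Il6* was 9.44-fold higher in old than in young cells (8.88 to 10.0). Carriers were 12 of 59 young cells (20.3%, 11.0 to 32.8%) and 23 of 59 old cells (38.98%, 26.5 to 52.6%), so the intervals of the shares overlapped. The level within carriers differed more, with a median of 61.4 CPM in young and 435 CPM in old carriers. No cell dominated the old group, where the highest cell gave 18.7% of the counts and the highest 3 gave 45.5%, while 1 young cell gave 49.4%. Without the highest cell of each age the levels were 16.7 and 256 CPM. The labels number the libraries in 3 separate ranges, and the log2 ratio was 3.20 in all cells, 4.33 in the first range and 2.80 in the second. In the first range the carriers were 6 of 20 young and 6 of 19 old cells, with levels of 16.3 and 348 CPM. In the second they were 6 of 39 and 17 of 40, and the level was higher in old cells in both ranges.

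By deposited cluster, *Il6* was highest in M9 (731 CPM), a cluster of 10 old MSC-S in which 6 cells carried it. Of the other 17 old MSC-S carriers, 10 lay among the 21 cells of M16 and 3 among the 10 of M12. The young carriers lay mostly in M12 (4 of 13 cells) and M7 (4 of 9). M6 and M8, clusters of 5 and 7 MSC-S, reached 340.2 and 312 CPM, with 1 young and 1 old carrier in M6 and 1 old carrier in M8. M1 and M2, mostly MSC-L, stayed at 0.376 and 0.217 CPM. *Il6* is not a guide gene of the mesenchymal clusters.

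The other mesenchymal populations owed their *Il6* to very few cells. In OPr it was 20.2-fold higher in old cells (14.5 to 28.96, log2 ratio 3.55), but 1 old cell gave 99.4% of the 544 counts. Without the highest cell of each age the levels were 0.351 CPM in young and 0.146 CPM in old OPr, a log2 ratio of -0.24, and in the first library range it was -1.21. The hematopoietic-marker cells held 1 *Il6* count between them, and without them old OPr stood at 33.9 CPM. In mOPr *Il6* was 3.41-fold higher in old cells (3.06 to 3.79), where 1 cell gave 85.1% of the counts, as 1 cell gave 99.8% in young mOPr. Without these 2 cells mOPr stood at 0.0710 CPM in young and 16.8 CPM in old cells, a log2 ratio of 4.05 instead of 1.74. All old OPr and old mOPr carriers, 2 and 3 cells, lay in cluster M5. MSC-L had 15 counts in young and 1 in old cells, a 12.8-fold lower level in old cells with an interval from 1.97 to 539.9, and 0 of 58 old cells carried the gene, which allows a share of up to 5.17% by a count of 3 and 6.16% by the exact interval. Here 1 young cell gave 80% of the young counts, and without it young MSC-L stood at 0.134 CPM.

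Among endothelial cells, *Il6* was a gene of AEC. Carriers were 21 of 84 young AEC (25.0%, 16.2 to 35.6%) and 29 of 82 old AEC (35.4%, 25.1 to 46.7%), with intervals that overlapped. The level was 1.28-fold higher in old AEC (1.24 to 1.33), under the 2-fold line, and the library ranges went opposite ways, with log2 ratios of 3.21, -1.89 and 1.02. In the first range alone, old AEC stood at 544 CPM, above old MSC-S at 348 CPM, but 1 old AEC held 2245 of the 4695 counts there. Over all ranges, the highest cell gave 29.6% of the young and 30.1% of the old AEC counts. Without the highest cell of each age, AEC stood at 119 CPM in young and 152 CPM in old cells. Most carriers lay in cluster E4 (11 of 26 young and 17 of 27 old AEC), and the small cluster E2 had the highest shares (3 of 4 and 2 of 3). *Il6* is a guide gene of the endothelial clusters, so their levels (280.3 CPM in E3, 168 CPM in E4 and 12.5 CPM in E7, a cluster mostly of SEC) follow in part from how they were built. In SEC the 3.76-fold higher level of old cells (3.39 to 4.17, log2 ratio 1.86) came from the cell with 13 hematopoietic markers, which held 1532 of 1644 counts at 3372 CPM. Without that cell old SEC stood at 5.53 CPM, 3.82-fold lower than young SEC (3.10 to 4.74, log2 ratio -1.76), and 1 young SEC in turn gave 70.4% of the young counts. Without the highest cell of each age, young and old SEC stood at 6.36 and 5.53 CPM, a log2 ratio of -0.17.

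**Figure D1:**
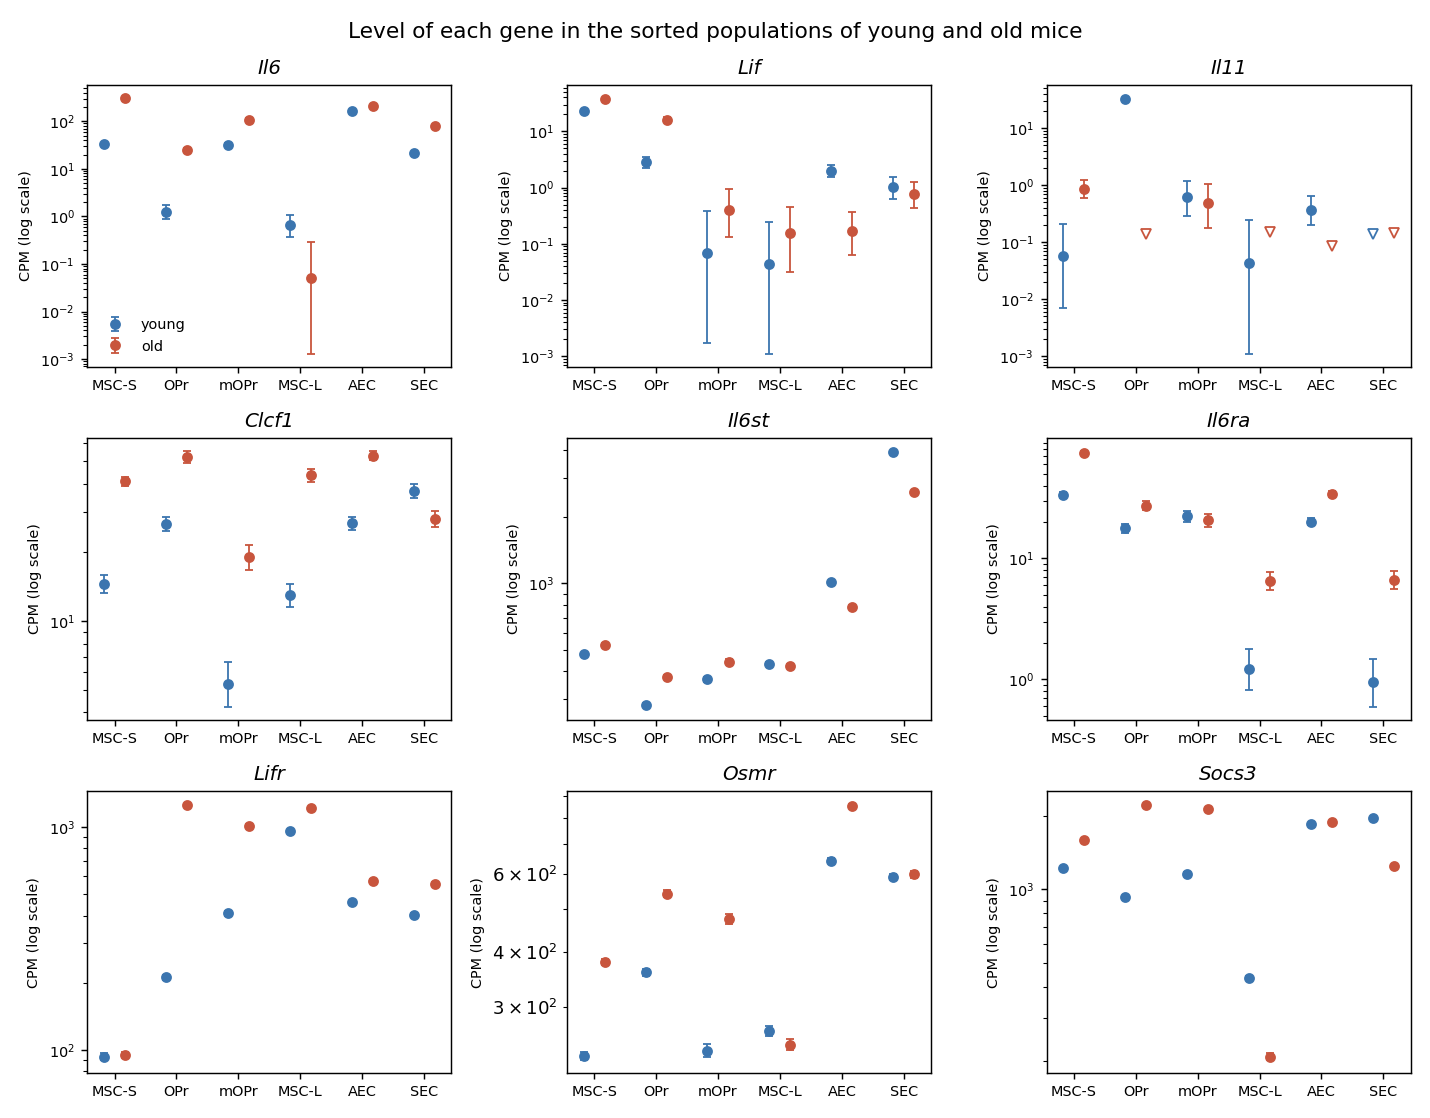
Level of each of the 9 genes in the 12 groups, in CPM of summed nuclear counts on a logarithmic axis, with young and old cells of each population side by side, exact Poisson 95% intervals as bars and open triangles at the floor of 3 counts where a group had no count. *Il6* runs from 0.0513 CPM in old MSC-L to 307 CPM in old MSC-S, while *Il6st* stays between 283 and 3948 CPM.

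*Lif* encodes leukemia inhibitory factor, a cytokine that acts through LIFR and gp130 (chr11:4257557-4272514, GRCm38, plus strand). It was nearly confined to MSC-S and OPr. Its level was 22.6 CPM in young and 37.6 CPM in old MSC-S, and 2.80 CPM in young and 16.2 CPM in old OPr, whereas the other 8 groups ranged from 0.0438 to 1.98 CPM. Only 17 cells carried it, 4 young and 5 old MSC-S among them. A few cells set these levels, since 1 cell gave 83.1% of the counts of young MSC-S, 56.8% of old MSC-S and 98.8% of OPr at each age. In MSC-S the log2 ratio of 0.71 was under the 2-fold line, and it was -0.83 in the first library range, 0.69 in the second and 1.84 with the highest cell of each age left out. The higher level of old OPr (5.79-fold, 4.54 to 7.46, log2 ratio 2.18) became a log2 ratio of 0.21 without the highest cell of each age. By order of level, intervals of neighbours overlapped from the fourth group, young OPr, downwards, except between young AEC and young SEC.

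*Il11* encodes interleukin 11, a cytokine known for its part in bone formation (chr7:4772373-4782859, GRCm38, minus strand), and was found almost only in young OPr. There it had 936 of the 1001 counts of all cells and a level of 31.9 CPM (29.9 to 34.02), against 0 counts in old OPr. The remaining groups held 0.868 CPM in old MSC-S, 0.0579 in young MSC-S, 0.617 in young and 0.481 in old mOPr, 0.373 in young AEC and 0.0438 in young MSC-L, and none in old MSC-L, old AEC or SEC of either age. The level of old OPr was thus at least 227-fold lower than that of young OPr, counting 3 for the group without a count, and at least 170.4-fold lower without the hematopoietic-marker cells. The exact intervals of these ratios began at 184.6-fold and 138.3-fold. Carriers were 7 of 44 young OPr (15.9%, 6.64 to 30.1%) and 0 of 29 old OPr, which allows a share of up to 10.3% by a count of 3 and 11.9% by the exact interval, so the ranges of the shares overlapped. All 7 lay among the 15 young OPr of cluster M3, which held 86.9 CPM. Old OPr had 1 cell in M3, so the ages of OPr compare different clusters here. The highest of them gave 71.9% of the counts, and without it young OPr stood at 9.26 CPM, for a log2 ratio of -3.36. Young cells were higher in both library ranges, with 6.34 and 51.7 CPM against 0 in old cells.

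*Clcf1* encodes cardiotrophin-like cytokine factor 1, a further cytokine of the family (chr19:4214238-4223490, GRCm38, plus strand). In young cells its level was 14.6 CPM in MSC-S, 26.7 in OPr, 5.35 in mOPr, 13.0 in MSC-L, 26.8 in AEC and 37.3 in SEC. In old cells it was 40.9, 52.4, 19.1, 43.4, 52.9 and 28.03 CPM in the same order. Unlike the other cytokine genes it was thus above 5 CPM in all 12 groups, and old cells had the higher level in every population but SEC. In SEC, 1 young cell with 7 mesenchymal markers gave 37.2% of the young counts. Without the highest cell of each age the levels of SEC were 23.9 CPM in young and 23.6 CPM in old cells. Among all cells of E7 the direction turned, with 26.3 CPM in young and 38.5 CPM in old cells. From the top, intervals overlapped between old AEC and old OPr, between old MSC-L and old MSC-S and between old MSC-S and young SEC, among old SEC, young AEC and young OPr, and between young MSC-S and young MSC-L. The gene shares 311 exon bases (8.17% of its length) with *AC109138.7* on the same strand, so its counts are uncertain.

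In MSC-S, *Clcf1* was 2.80-fold higher in old cells (2.53 to 3.10), with 8 of 59 young carriers (13.6%, 6.04 to 25.0%) and 19 of 59 old carriers (32.2%, 20.6 to 45.6%). The log2 ratio of 1.42 was 0.64 in the first library range and 1.60 in the second, and 1.62 with the highest cell of each age left out. In mOPr and MSC-L the higher level of old cells rested on 1 cell in each, which gave 92.9% and 70.4% of the old counts. Without the highest cell of each age the log2 ratio went from 1.66 to 0.57 in mOPr and from 1.67 to 0.49 in MSC-L. In mOPr it was -2.76 in the first library range and 3.94 in the second, and in MSC-L 5.52 and -2.26. In OPr it was 0.95 with and 1.35 without the hematopoietic-marker cells, where again 1 old cell gave 88.7% of the counts, and -0.10 with the highest cell of each age left out. The library ranges of OPr went opposite ways, with log2 ratios of -2.49 in the first and 0.99 in the second. In AEC it was 0.96, just under the line, and 1.11 with the highest cell of each age left out.

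**Figure D2:**
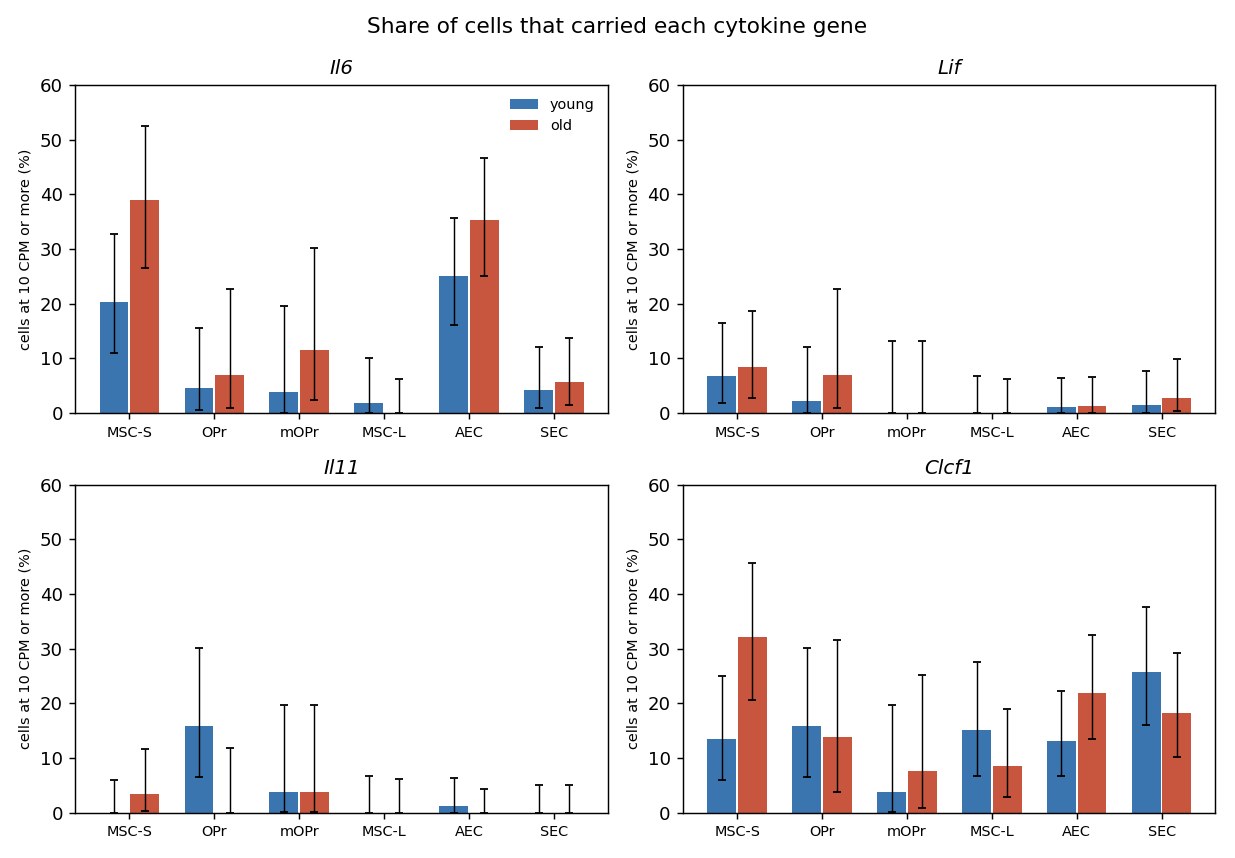
Percent of cells that carried each of the 4 cytokine genes at 10 CPM or more, in young and old cells of each population, with exact Clopper-Pearson 95% intervals as bars. Old MSC-S had the highest share for *Il6* (38.98%) and *Clcf1* (32.2%), and young OPr for *Il11* (15.9%).

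*Il6st* encodes gp130, the subunit shared by the family (chr13:112464070-112510086, GRCm38, plus strand). It was carried by 619 cells (93.6% of all). In young cells its level was 477 CPM in MSC-S, 283 in OPr, 369 in mOPr, 432 in MSC-L, 1017 in AEC and 3948 in SEC. In old cells it was 528, 379, 442, 425, 786 and 2584 CPM in the same order. SEC stood above all other groups at both ages, AEC came next, and the 8 mesenchymal groups lay within 1.87-fold of each other. All SEC lay in the third library range, which held no mesenchymal cell. Their difference from mesenchymal groups thus cannot be told apart from one between ranges. AEC of that range stood at 1280 CPM in young and 583 CPM in old cells. Old SEC had 1.53-fold less than young SEC (1.51 to 1.54), a log2 ratio of -0.61. The ages of SEC lay in different mixtures of clusters, with 59 of 70 young and 44 of 71 old SEC in E7, and among all cells of E7 the levels were 4460 CPM in young and 3640 CPM in old cells. No population reached 2-fold between ages, although AEC did in the third library range alone (log2 ratio -1.13, against -0.37 in all AEC). Intervals of neighbours overlapped among old mOPr, young MSC-L and old MSC-L, and between old OPr and young mOPr. *Il6st* is a guide gene of the endothelial clusters, where it ranged from 164 CPM in E2 to 4123 CPM in E7.

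*Il6ra* encodes the subunit that binds IL-6 itself (chr3:89864059-89913196, GRCm38, minus strand). In young cells its level was 33.4 CPM in MSC-S, 17.8 in OPr, 22.3 in mOPr, 1.23 in MSC-L, 20.2 in AEC and 0.958 in SEC. In old cells it was 74.8, 27.4, 20.7, 6.57, 34.2 and 6.66 CPM in the same order. *Il6ra* thus had its highest level in the same group as *Il6*, old MSC-S, and its lowest levels in MSC-L and SEC. Neighbours overlapped between old AEC and young MSC-S, from each to the next along young mOPr, old mOPr, young AEC and young OPr, between old SEC and old MSC-L, and between young MSC-L and young SEC. The gene shares 242 exon bases (2.80%) with the antisense gene *Gm42809*, so its counts are uncertain too.

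In MSC-S, *Il6ra* was 2.24-fold higher in old cells (2.09 to 2.40). Carriers were 20 of 59 young (33.9%, 22.1 to 47.4%) and 34 of 59 old cells (57.6%, 44.1 to 70.4%), with intervals that overlapped narrowly. The median level of carriers was similar, at 53.7 and 58.1 CPM. The log2 ratio of 1.14 was 0.97 without the highest cell of each age, 0.35 in the first library range, and higher in the second, where the levels were 28.2 and 81.5 CPM. In MSC-L (5.35-fold, 3.53 to 8.36) and SEC (6.95-fold, 4.37 to 11.6) old cells were higher as well, from 1 carrier among 53 young and 5 among 58 old MSC-L, and from 1 among 70 young and 3 among 71 old SEC. The log2 ratio of 1.76 in MSC-L was 2.27 in the first library range and 0.35 in the second, and that of 1.97 in SEC was 1.07 without the highest cell of each age. In mOPr, without a difference in all cells (log2 ratio -0.10), the library ranges gave 1.73 and -0.50, and leaving out the highest cell of each age gave -1.35. In AEC the log2 ratio was 0.73 in all cells and 1.14 in the second library range. In OPr the hematopoietic-marker cells decided the direction, with a log2 ratio of 0.59 with them and -0.38 without them, at 13.5 CPM.

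*Lifr* encodes the receptor that pairs with gp130 for LIF (chr15:7090614-7197489, GRCm38, plus strand). In young cells its level was 93.2 CPM in MSC-S, 212 in OPr, 409 in mOPr, 954 in MSC-L, 458 in AEC and 402 in SEC. In old cells it was 94.6, 1249, 1012, 1209, 573 and 553 CPM in the same order. MSC-S, the group with the most *Lif*, held the least *Lifr*, and young OPr and mOPr stood well below MSC-L whereas old ones came near it. Neighbours overlapped only between young mOPr and young SEC and between old and young MSC-S. The ages of MSC-S, alike in all cells (log2 ratio 0.02), differed in the first library range (1.21) and not in the second (-0.38).

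In OPr *Lifr* was 5.91-fold higher in old cells (5.75 to 6.07, log2 ratio 2.56). A single old cell gave 51.4% of the counts, and with the highest cell of each age left out the levels were 193 and 626 CPM (log2 ratio 1.69). Without the hematopoietic-marker cells old OPr stood at 1647 CPM (log2 ratio 2.96). Both library ranges had the higher level in old cells, with log2 ratios of 2.06 and 2.92. In mOPr it was 2.48-fold higher in old cells (2.40 to 2.55, log2 ratio 1.31), with 47.2% of the old counts from 1 cell. The log2 ratio there was 0.90 without the highest cell of each age, 0.03 in the first library range and 2.83 in the second, and 0.70 when each cell had equal weight. MSC-L markers differed in the same direction, with all 4 higher in old cells and a median log2 ratio of 1.71 in OPr and 4.14 in mOPr. Beside them, 25.6% of all genes were higher in old OPr and 24.7% in old mOPr. By cluster, *Lifr* was highest in M2 (2494 CPM) and stood at 835 CPM in M1, against 258 CPM in M3, 29.8 CPM in M4 and 383 CPM in M5. Among all cells of M3 to M5, counted as OPr-like, the log2 ratio was 0.41. The hematopoietic-marker cells of OPr and MSC-L lay in M5 and were counted there. Of the sorted cells, 3 of 44 young and 10 of 29 old OPr lay in M1 or M2, as did 2 of 26 young and 14 of 26 old mOPr, and the old OPr with the most *Lifr* counts lay in M2. The ages of OPr and mOPr thus compare different mixtures of clusters. The part that MSC-L-like cells had in the higher *Lifr* of old OPr and mOPr was not tested further.

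*Osmr* encodes the receptor that pairs with gp130 for oncostatin M (chr15:6813577-6874969, GRCm38, minus strand, the neighbour of *Lifr*). Its level ranged from 233 CPM in young MSC-S to 852 CPM in old AEC and was the most even of the 9 genes, a span of 3.65-fold. In MSC-S it was 233 CPM in young and 379 CPM in old cells, in OPr 360 and 541 CPM, in mOPr 239 and 474 CPM, in MSC-L 265 and 247 CPM, in AEC 642 and 852 CPM, and in SEC 590 and 599 CPM. No population reached 2-fold between ages in all cells, and mOPr came closest with a log2 ratio of 0.98, from 2.98 in the first library range and -0.11 in the second. In OPr the log2 ratio of 0.59 came from -0.87 in the first library range and 1.00 in the second. Without the hematopoietic-marker cells, which held 4 *Osmr* counts in OPr, old OPr stood at 722 CPM and the log2 ratio there was 1.00. A single old OPr gave 37.2% of the counts of all old OPr, and with the highest cell of each age left out the levels were 311 and 353 CPM (log2 ratio 0.18). By order of level, intervals overlapped between old and young SEC, between old MSC-L and young mOPr, and between young mOPr and young MSC-S.

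*Socs3* encodes the feedback inhibitor of gp130 signalling (chr11:117966079-117970047, GRCm38, minus strand) and was carried by 531 cells (80.3% of all). In young cells its level was 1225 CPM in MSC-S, 928 in OPr, 1158 in mOPr, 436 in MSC-L, 1840.3 in AEC and 1948 in SEC. In old cells it was 1593, 2207, 2127, 208, 1876 and 1241 CPM in the same order. MSC-L of both ages stood below every other group, and old OPr and old mOPr stood highest. Only old SEC and young MSC-S, as neighbours in this order, had intervals that overlapped.

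In OPr *Socs3* was 2.38-fold higher in old cells (2.34 to 2.41, log2 ratio 1.25), with 44.5% of the old counts from 1 cell, which lay in cluster M1. The median cell was lower in old OPr, with 470.5 CPM in young and 248 CPM in old cells (259 CPM without the hematopoietic-marker cells), and carriers were 38 of 44 young (86.4%, 72.6 to 94.8%) and 18 of 29 old OPr (62.1%, 42.3 to 79.3%), or 15 of 21 without those cells. The higher summed level thus came from few cells. Among all cells of M3 to M5, counted as OPr-like, the levels were 892 and 1139 CPM (log2 ratio 0.35). These include the hematopoietic-marker cells of OPr and MSC-L, which lay in M5, and levels without them were not taken. Among sorted OPr without the highest cell of each age the levels were 831 and 1288 CPM (log2 ratio 0.63). Without the hematopoietic-marker cells, which held 289 CPM, old OPr stood at 2849 CPM (log2 ratio 1.62). The log2 ratio was 0.87 in the first library range and 1.61 in the second, and 0.98 when each cell had equal weight. In MSC-L *Socs3* was 2.10-fold lower in old cells (2.02 to 2.17, log2 ratio -1.06), with log2 ratios of -1.81 and -0.90 in the library ranges and -0.97 with the highest cell of each age left out. Carriers were 36 of 53 young (67.9%, 53.7 to 80.1%) and 40 of 58 old MSC-L (68.97%, 55.5 to 80.5%), with a median of 226 CPM in young and 72.4 CPM in old carriers. Among all cells of M1 and M2, sorted from the endosteum or the marrow, the summed level was 618 CPM in young and 1592.5 CPM in old cells (log2 ratio 1.36). There 1 cell sorted as OPr gave 37.4% of the old counts and the highest 3 gave 64.6%, while the median cell had 125 CPM in young and 97.3 CPM in old cells. In mOPr, MSC-S, AEC and SEC the log2 ratios were 0.88, 0.38, 0.03 and -0.65, and in mOPr the first library range alone passed the line (1.22).

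Immediate-early genes, like *Socs3*, were lowest in MSC-L. The 12 dissociation and immediate-early genes, led by *Fos*, summed to 3526 CPM in young and 2954 CPM in old MSC-L against 15946.5 to 30979.6 CPM in the other groups, with SEC, like MSC-L from the marrow, at the low end (15946.5 CPM in young and 16247 CPM in old cells). Between ages their median log2 ratio was -0.16 in MSC-S, -0.26 in OPr, 0.09 in mOPr, -0.12 in MSC-L, 0.18 in AEC and 0.18 in SEC. In old OPr, where *Socs3* was higher, they thus summed to 17988 CPM against 20791 CPM in young OPr. The part of these genes in the levels of *Socs3* and *Il6* between populations was not tested. Per the paper, endosteal cells were digested with collagenase for longer than marrow cells, so these populations also differ in handling.

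Over all 54 pairs of a gene and a population, 44 had enough counts, and in 16 of these the level in old cells was at least 2-fold away from young cells, higher in 14 and lower in 2. In MSC-S, 3 of 8 genes with enough counts were higher (*Il6*, *Clcf1* and *Il6ra*) and 0 were lower, beside 8.65% of all genes higher and 11.1% lower. In OPr, 4 of 9 were higher (*Il6*, *Lif*, *Lifr* and *Socs3*) and 1 was lower (*Il11*), beside 25.6% and 19.6% of all genes. Without the hematopoietic-marker cells 6 of 9 were higher, *Clcf1* and *Osmr* added, and 1 was lower, beside 26.4% and 18.4%. Among all OPr their log2 ratios were -0.10 and 0.18 with the highest cell of each age left out. In mOPr, 3 of 7 were higher (*Il6*, *Clcf1* and *Lifr*) and 0 were lower, beside 24.7% and 19.8%. In MSC-L, 2 of 6 were higher (*Clcf1* and *Il6ra*) and 1 was lower (*Socs3*), beside 13.9% and 11.5%, and the same counts without the cell with 7 hematopoietic markers stood beside 13.6% and 11.8%. In AEC, 0 of 7 passed in either direction, beside 9.33% and 11.7%, although *Clcf1* (log2 ratio 0.96) reached 1.00 and 1.01 under 2 other scalings and 1.32 without the cells with mesenchymal markers, where *Il6ra* reached 1.04. In SEC, 2 of 7 were higher (*Il6* and *Il6ra*) and 0 were lower, beside 13.1% and 7.56%, and without the cell with 13 hematopoietic markers 1 was higher and 1 was lower (*Il6*), beside 12.2% and 7.80%. The members were chosen with such values known, so nothing is read from their counts against those of all genes.

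**Figure D3:**
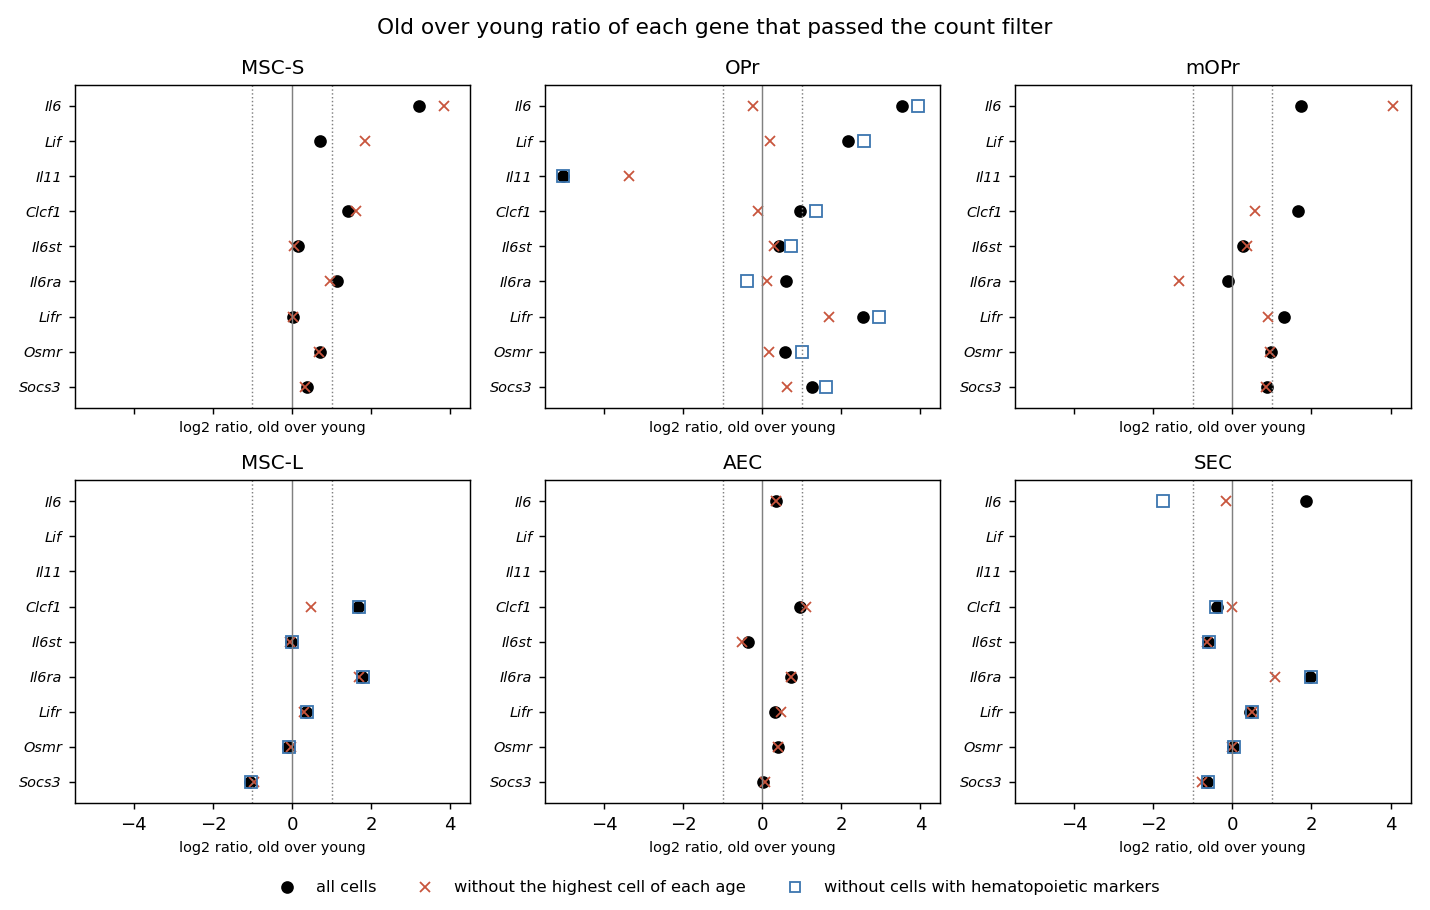
Log2 ratio of old over young for each of the 9 genes with enough counts, by population, from all cells (black dots), without the highest cell of each age (red crosses) and without the cells with hematopoietic markers (blue squares), with dotted lines at -1 and 1. *Il6* in MSC-S keeps its side without the highest cells (3.20 and 3.85), whereas *Il6* in OPr goes from 3.55 to -0.24.

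The median log2 ratio of the members with enough counts was 0.70 in MSC-S, 0.95 in OPr, 0.98 in mOPr, 0.16 in MSC-L, 0.36 in AEC and 0.02 in SEC, where it was -0.40 without the cell with 13 hematopoietic markers. Without such cells it was 1.35 in OPr and 0.19 in MSC-L. Over all genes it was -0.06, 0.14, 0.11, 0.01, -0.03 and 0.05 in the same order. By role, the cytokine genes had medians of 1.42 in MSC-S (3 genes), 1.56 in OPr (4 genes), 1.70 in mOPr (2 genes), 1.67 in MSC-L (*Clcf1* alone), 0.66 in AEC (2 genes) and 0.73 in SEC (2 genes). The receptor genes, all 4 with enough counts in every population, had medians of 0.42, 0.59, 0.62, 0.16, 0.37 and 0.24. In SEC those of the cytokine and receptor genes were -1.08 and 0.27 without the cell with 13 hematopoietic markers. Single cells weigh on these medians, as in OPr the log2 ratios of *Il6* and *Clcf1* were -0.24 and -0.10 with the highest cell of each age left out, so no order of the roles is read from them.

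Levels of different genes were compared after division by exon length in kb. *Socs3* was first in 11 of 12 groups, and *Lifr* was first in old MSC-L. *Il6* came next after *Socs3* in old MSC-S (126 CPM per kb) and old AEC (87.9 CPM per kb). Transcripts of the shared subunit exceeded those of the IL-6-binding subunit in every group, by 5.50-fold per length in old MSC-S, the lowest ratio, and by 3210-fold in young SEC, the highest. In young SEC the ratio rests on 21 *Il6ra* counts, 16 of them from 1 cell, without which the *Il6ra* level went from 0.958 to 0.231 CPM.

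Receptor subunits were also followed cell by cell. Of all cells, 127 carried *Il6st* with *Il6ra* (19.2%, 16.3 to 22.4%), 502 carried it with *Lifr* (75.9%, 72.5 to 79.2%) and 517 with *Osmr* (78.2%, 74.9 to 81.3%). Both *Lifr* and *Osmr* accompanied it in 440 cells (66.6%, 62.8 to 70.2%), and only 18 of 619 *Il6st* carriers had none of *Il6ra*, *Lifr*, *Osmr* and *Il11ra1*. The pair of *Il6st* and *Il6ra* was thus the rarest of these, and it was most frequent in old MSC-S, with 34 of 59 cells against 20 of 59 in young MSC-S. In SEC it was found in 1 of 70 young and 3 of 71 old cells. Shares of this kind depend on the depth of a cell, and a gene not found in a cell may still be expressed there.

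Cells that carried *Il6* carried *Socs3* in 97 of 101 cases (96.0%, 90.2 to 98.9%), most of them MSC-S and AEC, where *Socs3* was frequent in all cells. It was found in 12 of 12 young and 23 of 23 old MSC-S with *Il6*, beside 56 of 59 and 53 of 59 of all MSC-S, and in 21 of 21 young and 28 of 29 old AEC with *Il6*, beside 68 of 84 and 72 of 82 of all AEC. Carriers of *Il6* carried *Il6ra* in 35 of 101 cases (34.7%, 25.5 to 44.8%) and *Clcf1* in 31 of 101 (30.7%, 21.9 to 40.7%), beside 19.4% and 17.2% of all cells. They carried *Lif* in 5 of 101 cases (4.95%, 1.63 to 11.2%), 4 of them old MSC-S, beside 2.57% of all cells. *Clcf1* was carried by 2 of 12 young and 10 of 23 old MSC-S with *Il6*, beside 8 of 59 and 19 of 59 of all MSC-S. In AEC with *Il6* it was carried by 6 of 21 young and 11 of 29 old cells, beside 11 of 84 and 18 of 82 of all AEC. Among MSC-S carriers of *Il6*, *Il6ra* was carried by 3 of 12 young cells (25.0%, 5.49 to 57.2%) and 15 of 23 old cells (65.2%, 42.7 to 83.6%), so that 15 of 59 old MSC-S had both the cytokine and its own receptor subunit. These intervals overlapped, and the shares stood near those of all MSC-S, 20 of 59 young (33.9%) and 34 of 59 old cells (57.6%). *Lifr* was carried by 16 of 17 *Lif* carriers (94.1%, 71.3 to 99.9%), beside 79.6% of all cells. In MSC-S it was carried by 3 of 4 young and 5 of 5 old *Lif* carriers, beside 33 of 59 and 27 of 59 of all MSC-S.

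Other genes of the pathway were taken from lists made by function. Of 8 further ligand genes, at most 2 had enough counts in any population. Among them *Ctf1* stood at 7.43 CPM in young and 1.08 CPM in old OPr (log2 ratio -2.02). Of 7 further receptor genes, *Il11ra1*, which encodes the receptor of IL-11, was highest in MSC-S, with 194 CPM in young and 150.3 CPM in old cells. It stood at 66.003 CPM in young OPr, the group with *Il11*, and at 30.8 CPM in old OPr (log2 ratio -1.07, and -0.67 without the hematopoietic-marker cells). In all populations the 13 signalling genes had enough counts, with median log2 ratios of -0.08 in MSC-S, -0.01 in OPr, 0.42 in mOPr, 0.31 in MSC-L, -0.24 in AEC and -0.19 in SEC. *Stat3* itself ranged from 212 to 499.8 CPM over the 12 groups.

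Of the STAT3-responsive genes, 8 of 11 in mOPr were higher in old cells and 0 were lower, with a median log2 ratio of 1.61, among them *Cebpd* (419 and 1811 CPM) and *Il4ra* (30.2 and 107 CPM). In OPr 9 of 13 were higher and 1 was lower, with a median of 2.31. Without the hematopoietic-marker cells this became 6 of 12 higher and 1 lower with a median of 0.99, and *Bcl3*, at 16.6 CPM in young and 88.9 CPM in the remaining old OPr, was among the 6. In MSC-S, where *Il6* differed most clearly, 2 of 12 were higher and 1 was lower, with a median of 0.25. For MSC-L 1 was higher and 1 was lower of 12 (median -0.07), for AEC 0 were higher and 4 lower of 12 (median -0.29), and for SEC 0 were higher and 2 lower of 12 (median -0.42). Many of these genes also respond to other signals and several are abundant in blood cells, and which signal moved them was not tested. Some are abundant in MSC-L, such as *Hp* (7652 CPM in young MSC-L, against 206 CPM in young and 1645 CPM in old mOPr), and MSC-L markers were higher in old cells too, 4 of 4 in both OPr and mOPr (medians 1.71 and 4.14). Of all genes, 24.7% were higher and 19.8% lower in mOPr, 25.6% and 19.6% in OPr (26.4% and 18.4% without the hematopoietic-marker cells), 8.65% and 11.1% in MSC-S, 13.9% and 11.5% in MSC-L, 9.33% and 11.7% in AEC, and 13.1% and 7.56% in SEC.

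Of the pericyte markers with enough counts, 3 of 4 in OPr (*Rgs5* had a log2 ratio of -0.29), 3 of 3 in mOPr and 4 of 4 in SEC were higher in old cells, with a median log2 ratio of 4.26 in OPr, 3.58 in mOPr and 3.61 in SEC, and their part in the results above was not tested. Without the hematopoietic-marker cells 3 of 4 in OPr were higher, and all 4 log2 ratios were positive, the lowest 0.07. In SEC, AEC markers were higher in old cells too (5 of 5, median 2.46). Of all genes, 25.6% were higher in old OPr, 24.7% in old mOPr and 13.1% in old SEC. *Il6* in old SEC was carried by 2 of 6 cells in E4, a cluster of mostly AEC, and by 2 of 12 in E6, the cell with 13 hematopoietic markers among the latter, and by none of the 44 in E7.

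The genes most alike to each member in level were sought among 13220 genes over the 12 groups by Pearson's r of log2 levels. These 12 groups may share mice, libraries of a range and depth, so r is a description. For *Il6* the nearest were *Cd34* (r = 0.94), *Dmd* (0.93) and *Gm8894* (0.93). For *Socs3* they were *Gadd45g* (0.96), *Nfkbiz* (0.95) and *Nr4a1* (0.94), the last a gene of the immediate-early list. *Il6st* was nearest to *Ubd* (0.98), *Mrc1* (0.98) and *Tfec* (0.97), each highest in young SEC. For *Lifr* the list held *RP23-276C23.2* (0.96), *Kdm2a* (0.95) and *Notch3* (0.95), for *Osmr* *Slc25a25* (0.95), *Ubald2* (0.93) and *Tinagl1* (0.91), and for *Il6ra* *Cystm1* (0.94), *Crip1* (0.94) and *Aldoa* (0.91). *Clcf1* was nearest to *Mcm2* (0.93), *Cep152* (0.91) and *Atxn7* (0.89), and *Lif* to *Soat2* (0.93), *Tcfl5* (0.88) and *Adam33* (0.87). *Il11* was nearest to *Matn1*, *Gpr3* and *Zdbf2* (0.89 each), all highest in young OPr. Between members the strongest relations were those of *Il6* with *Socs3* (r = 0.81), *Osmr* with *Socs3* (0.66) and *Lif* with *Lifr* (-0.63).

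Promoters are shown for the 2 members whose regulation by inflammatory signals is best known, *Il6* and *Socs3*, which were also the most alike among the members. The windows span 250 bases before to 50 bases after the gene's start in RefSeq (GRCm38.p6), and 8 of the 9 members had such a window, *Clcf1* being without. *Il6* is read from chr5:30012864-30013163 on the plus strand and *Socs3* from chr11:117969317-117969616 on the minus strand. The *Socs3* span given further above comes from another annotation and starts upstream of this window, so the window lies inside that span. Capitals mark matches to motifs, which were picked from what is known of these 2 promoters and searched on both strands.
Il6: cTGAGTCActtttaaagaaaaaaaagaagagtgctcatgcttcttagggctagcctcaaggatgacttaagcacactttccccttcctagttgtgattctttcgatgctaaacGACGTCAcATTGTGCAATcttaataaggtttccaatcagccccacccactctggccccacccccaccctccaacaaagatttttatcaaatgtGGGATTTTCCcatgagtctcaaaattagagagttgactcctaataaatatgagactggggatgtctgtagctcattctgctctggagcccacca
Socs3: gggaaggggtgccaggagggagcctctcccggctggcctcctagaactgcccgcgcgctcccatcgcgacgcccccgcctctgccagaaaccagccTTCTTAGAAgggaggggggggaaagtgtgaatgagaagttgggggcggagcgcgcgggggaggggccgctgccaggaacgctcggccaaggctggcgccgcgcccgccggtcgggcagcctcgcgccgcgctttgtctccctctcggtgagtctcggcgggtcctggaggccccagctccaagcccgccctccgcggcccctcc
The *Il6* window held the AP-1 motif TGAGTCA at bases 2 to 8, the core GACGTCA of the cAMP response element at bases 114 to 120, the C/EBP motif at bases 122 to 131 and the kappaB match GGGATTTTCC at bases 207 to 216. The *Socs3* window held the STAT motif TTCNNNGAA at bases 97 to 105, which reads the same on both strands. Of 32851 promoters of this length, 8.30% held the STAT motif, 5.20% the AP-1 motif, 3.21% the core, 1.79% the full element TGACGTCA that contains this core, 1.63% the kappaB motif and 0.0548% the C/EBP motif. Among the other members, *Lif* and the downstream of 2 *Il11* windows each held an AP-1 match and the remaining windows held none of these motifs. These matches describe letters and do not show a bound site.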

How the data were processed

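The deposited counts are reads per gene and cell that the authors obtained, per the submitters' processing notes, with GSNAP and HTSeq on GRCm38.p4. Of 46078 table entries, 270 with a repeated symbol were summed, and 37 mitochondrial genes were left out of the totals. Every column matched a sample. Counts were summed over the cells of each age and population and scaled to nuclear counts. Genes under 100 counts, or found in under 5 cells of both ages, were not called, and ratios took a pseudocount of 1 CPM. No test was made. Named genes are the 9 members, the genes of the lists, and for each member the 3 genes with the highest Pearson r over the 12 groups on log2(CPM + 1), searched where 1000 or more counts fell in 25 or more cells. Genes named as examples from the lists were picked after their values were seen. Members and lists (ligands, receptors, signalling and STAT3-responsive genes of the pathway, dissociation and immediate-early genes, and markers of the lineages and populations) were chosen with earlier results of these data known. Alternatives were mean CPM per cell, edgeR TMM and DESeq2 size factors, thinning to 100000 counts, a pseudocount of 0.1 CPM, no filter, each library-number range, identity groups of the deposited clusters, leaving out cells with markers of another lineage or the highest cell of each age, and carrying at 50 CPM. Doublets were not called. Steps were tested on simulated data and run in R 4.3.3 with DESeq2 1.42.0 and edgeR 4.0.16, and in Python 3.11.15 with scipy 1.17.1, pandas 2.3.3, numpy 2.4.6 and matplotlib 3.10.9.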

Additional observations from a re-analysis of the deposited data

Results flagged for a closer look

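Between ages the summed level of *Socs3* was higher in old OPr (log2 ratio 1.25) and lower in old MSC-L (-1.06), and the difference between the populations was not tested, since each age of a population was 1 sample. In OPr the log2 ratio was 1.62 without the cells with hematopoietic markers and 0.63 with the highest cell of each age left out. It was 0.35 among the OPr-like cells of clusters M3 to M5, those with hematopoietic markers included. In MSC-L it was -1.04 and -0.97 in these settings, and 1.36 among the MSC-L-like cells of clusters M1 and M2. That last ratio rests on few cells, since 1 cell sorted as OPr gave 37.4% of the old counts and the highest 3 gave 64.6%, and the median cell had 125 CPM in young and 97.3 CPM in old cells. Among sorted OPr the median cell was lower in old cells as well (470.5 CPM in young and 248 CPM in old cells), as it was among sorted MSC-L (107 and 38.4 CPM). The opposite directions thus held for summed counts and for the mean over cells, but not for the median cell. Whether a technical or a biological difference stands behind those of the sorted populations cannot be told apart with this design.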

How the results depend on the processing

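All 16 ratios past 2-fold kept their direction with mean CPM per cell, TMM, DESeq2, thinning and the lower pseudocount, and 14, 16, 16, 15 and 16 of them stayed past 2-fold. Direction was kept by 11 of 14 in library-number range 1, 13 of 14 in range 2, 11 of 13 in identity groups, 14 of 16 without the highest cell of each age (7 past 2-fold), 9 of 10 without hematopoietic-marker cells and 2 of 2 without other-lineage cells. Reversed log2 ratios were *Il6* in OPr (-1.21 in range 1, -0.24 without the highest cells), *Clcf1* in mOPr (-2.76 in range 1) and MSC-L (-2.26 in range 2), *Socs3* in MSC-L (1.36 in the identity group) and *Il6* in SEC (-4.16 in the identity group, -1.76 without hematopoietic-marker cells, -0.17 without the highest cells). The number of members past 2-fold went from 3 to 5 in MSC-S, 5 to 3 in OPr, 0 to 1 in AEC and 2 to 0 in SEC by identity group. That of OPr includes the hematopoietic-marker cells of OPr and MSC-L. By identity group, 8.01% of all genes were higher and 13.2% lower in MSC-S, and 22.5% and 22.9% in OPr. The shares of all genes were 12.1% and 11.3% in AEC, and 11.4% and 10.4% in SEC. The number of members went from 5 to 1 in OPr and 0 to 1 in AEC in range 1, from 3 to 1 in MSC-L and 0 to 3 in AEC in range 2, and from 0 to 2 in AEC in range 3. In range 1, 24.7% of all genes were higher and 32.8% lower in OPr, and 16.3% and 23.4% in AEC. In range 2 these shares were 17.2% and 16.1% in MSC-L, and 14.7% and 14.7% in AEC. In range 3 they were 17.6% and 19.2% in AEC. Without the highest cells, with genes then too low or in too few cells not counted, the number of members past 2-fold was 2 in OPr, 0 in MSC-L, 1 in AEC and 0 in SEC. The highest cells were left out for the members only, so no share of all genes stands beside these counts and nothing is read from them. In AEC the number of members was 1 with TMM, DESeq2 or no filter and 2 without other-lineage cells, and in SEC 1 after thinning. In AEC, 9.88% of all genes were higher and 11.0% lower with TMM, and 9.86% and 10.9% with DESeq2. The shares of all genes there were 6.18% and 7.88% with no filter, and 9.41% and 11.6% without other-lineage cells. In SEC they were 11.1% and 6.22% after thinning. The cause was not tested. The median of all genes in OPr (0.14) shifted by -0.18 with TMM, -0.16 with DESeq2 and 0.11 with thinning, and in mOPr (0.11) by -0.16 and -0.13 with TMM and DESeq2. Of 108 shares, 105 stayed within their interval after thinning, which left out 7 cells, and 84 at 50 CPM. No paired analysis was possible because the labels name no mouse.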

Other observations

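*Osm*, the ligand of the *Osmr* product and the gene next to *Lif*, was found almost only in cells with hematopoietic markers. It stood at 254 CPM in old OPr and 172 CPM in old SEC, at 0 and 0.197 CPM there without those cells, and at 0.462 CPM or less in the other groups. Over all groups, 8 cells carried it.

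Old and young cells of a population came from mice that the labels do not name, so a difference between ages cannot be told apart from one between mice or preparations. SEC shared no library range with mesenchymal cells, so a difference between these cannot be told apart from one between ranges. Cytokine levels rest on few carriers, 101 for *Il6*, 17 for *Lif* and 12 for *Il11*. Transcripts do not show secreted cytokine or receptor on the surface, and no cell of blood lineage was sorted on purpose, so sources outside the stroma are not covered.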
